A study of Schizosaccharomyces pombe with 4 samples.

Results

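Translation elongation and termination factors are the soluble proteins that carry a ribosome along a message once initiation is over. In fungi eEF1A brings aminoacyl-tRNA to the ribosome as a complex with GTP, and eEF1B recharges eEF1A with GTP. eEF2 moves the ribosome to the next codon, eEF3 is an ATPase of fungi that helps the spent tRNA leave, and eRF1 with the GTPase eRF3 ends synthesis at a stop codon. In fission yeast several of these proteins are encoded by near-identical gene copies. The genes were chosen by name, and 8 of the 9 names in the rule were found among the 5129 genes of the table. They were the eEF1A copies tef101, tef102 and tef103, the eEF1B nucleotide exchange subunit tef5, the eEF2 copies eft201 and eft202, the eEF3 gene tef3 and the eRF3 gene sup35. The name sup45 was absent and was skipped. RefSeq gives sup45 as a synonym of erf1 (SPAC1834.01, chromosome I 4691927 to 4693228), the eRF1 gene, and erf1 was listed at 0 with bounds of 0 in all 4 genotypes, so it could not be compared. Among all genes 215 were listed at 0 FPKM in all 4 genotypes, so the 0 is not read as a lack of erf1 expression.

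The samples were Schizosaccharomyces pombe cells in exponential growth without treatment: knockouts of sfp1, of ifh1 and of fhl1 (sfp1 KO, ifh1 KO, fhl1 KO) and wild type, with 1 sample per genotype and no further allele given in the labels. Sfp1, Ifh1 and Fhl1 are transcription regulators whose budding yeast counterparts act on genes for making ribosomes. The question here was what level the elongation and termination factor genes had when each regulator was missing. Each gene had 1 FPKM value per genotype (fragments per kilobase, scaled to depth, so a level per length) with a lower and an upper bound deposited by the authors. The name of the authors' table refers to 2 replicates, but the table holds 1 value per genotype, and the sources used here do not give whether or how replicates were combined into a value and its bounds. There was therefore no replicate check and no test. Differences are log2 ratios of FPKM + 1, knockout over wild type, and a difference of at least 2-fold is the limit used for counts.

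Each deleted gene was at 0.0818 (sfp1), 0.556 (ifh1) and 0.0509 (fhl1) FPKM in its own knockout, and between 45.1 and 270.3 FPKM elsewhere. The steps of the bounds gave 4520141, 4275076 and 4655963 fragments for sfp1, ifh1 and fhl1 KO and 5431607 for wild type on an assumed common scale, since the true depth is unknown. The members rested on 2159 fragments (eft202, sfp1 KO) to 71418 fragments (tef3, wild type). Their bounds lay 30.5% (eft201, ifh1 KO) to 45.5% (tef3, fhl1 KO) of the midpoint to either side, and in 0 of 24 pairs of a knockout with wild type did the bounds of a member lie apart, as they did for 2.56% (sfp1 KO), 1.68% (ifh1 KO) and 0.798% (fhl1 KO) of all genes. All 8 members passed the minimum of 1 FPKM on average, as did 4761 of all genes.

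The copies of eEF1A and eEF2 are so alike that the split of reads between them is uncertain. Their coding sequences are of equal length, 1383 bases for eEF1A and 2529 for eEF2. The copies tef101 and tef102 differ at 16 bases, tef101 and tef103 at 19, tef102 and tef103 at 15, and eft201 and eft202 at 11 (99.6% identity). Of all windows of 50 coding bases, 74.4% in tef101, 79.1% in tef102 and 79.7% in tef103 recur elsewhere in the genome, as do 88.0% in each eEF2 copy, while 0 do in tef5, tef3 and sup35. The sources used here do not give how the authors treated reads that fit several copies. The stretch of 60 bases in which the 3 eEF1A copies differ most is shown because reads like these are what tells the copies apart. It covers coding bases 1291 to 1350, and capitals mark the 7 positions at which the copies differ (RefSeq genome ASM294v3, coding strand).
tef101, chrIII:268130-268189, minus strand: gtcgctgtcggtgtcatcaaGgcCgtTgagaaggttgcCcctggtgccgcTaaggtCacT
tef102, chrI:4096492-4096551, plus strand: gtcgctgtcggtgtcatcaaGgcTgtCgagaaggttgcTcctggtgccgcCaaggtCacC
tef103, chrII:626139-626198, minus strand: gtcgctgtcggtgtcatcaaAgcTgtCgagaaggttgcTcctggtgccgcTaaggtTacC

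For eEF2 the same search found coding bases 1 to 60, with 4 differing positions in capitals.
eft201, chrI:2910170-2910229, minus strand: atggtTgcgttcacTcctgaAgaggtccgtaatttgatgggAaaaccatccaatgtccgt
eft202, chrIII:537326-537385, plus strand: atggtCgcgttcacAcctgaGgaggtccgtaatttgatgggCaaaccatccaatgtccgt

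Promoters of 5 of the 8 members held a sequence box of ribosomal protein gene promoters. The HomolD box (CAGTCACA on either strand) and the HomolE box (its letters, on either strand, stand in capitals in eft202 below) are known from ribosomal protein gene promoters of fission yeast, where HomolD takes the place of a TATA box. From 250 bases before to 50 bases after the annotated start, a HomolD box was found in 4 of the 8 members, among them all 3 eEF1A copies, against 137 of 5156 promoters of protein-coding genes (2.66%) and 88 of 138 promoters of cytosolic ribosomal protein genes (63.8%). A HomolE box was found in 1 member, eft202, against 64 of all promoters (1.24%) and 41 of the ribosomal protein gene promoters (29.7%). For either box the count over all promoters includes the ribosomal protein genes and the members. Outside these, 45 genes had a HomolD box. No member held both, so the boxes did not overlap. The same 5 members held a box in the 500 bases before the coding start. The promoters that hold a box are shown with the box in capitals, 5′ to 3′ on the strand of the gene, up to the annotated start at most.
tef101, chrIII:269517-269606, minus strand: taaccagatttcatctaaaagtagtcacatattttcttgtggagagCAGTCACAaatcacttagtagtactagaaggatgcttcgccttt
tef102, chrI:4095030-4095129, plus strand: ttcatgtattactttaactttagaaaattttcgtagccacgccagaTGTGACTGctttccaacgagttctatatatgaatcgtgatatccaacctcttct
tef103, chrII:627528-627627, minus strand: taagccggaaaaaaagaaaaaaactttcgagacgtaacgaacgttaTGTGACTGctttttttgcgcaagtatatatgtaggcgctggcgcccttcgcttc
tef3, chrIII:1685460-1685559, plus strand: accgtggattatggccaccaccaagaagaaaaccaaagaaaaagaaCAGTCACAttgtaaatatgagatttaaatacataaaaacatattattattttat
eft202, chrIII:537184-537283, plus strand: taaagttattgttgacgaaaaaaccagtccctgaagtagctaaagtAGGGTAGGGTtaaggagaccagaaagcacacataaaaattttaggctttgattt

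The boxes of tef101 and tef3 ran along the gene's strand and those of tef102, tef103 and eft202 on the opposite strand. Counted from the annotated start, the box began 44 bases before tef101, 56 before tef102, 59 before tef103, 60 before eft202 and 139 before tef3. A match is a run of letters and not a shown binding site, and for tef5, eft201 and sup35 it can only be said that these letters were not in the window.

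**Figure D1:**
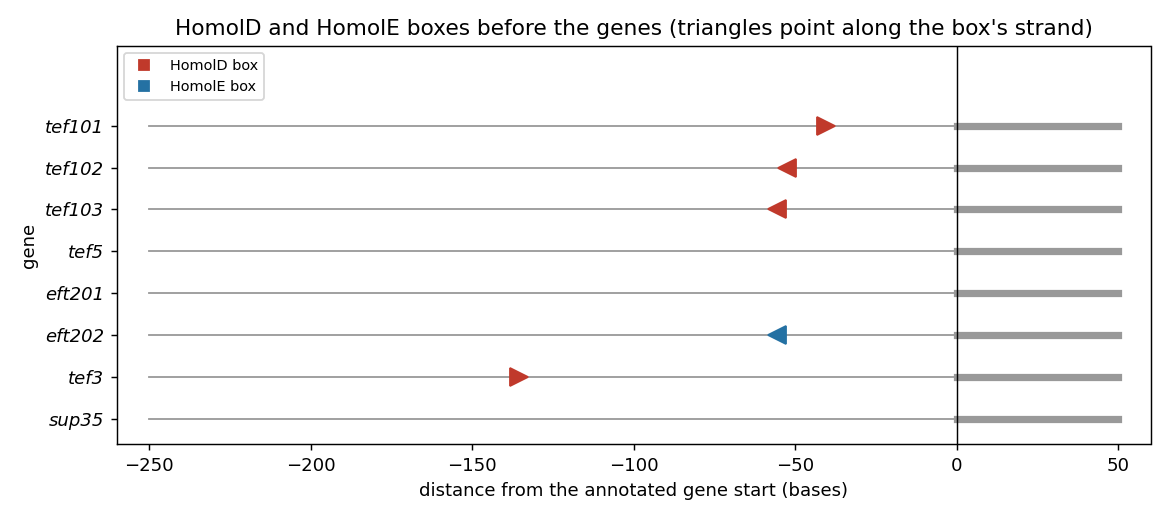
Position of HomolD (red) and HomolE (blue) boxes in bases from the annotated gene start for the 8 genes, with triangles pointing along the strand of the box. The boxes of the eEF1A copies and of eft202 begin 44 to 60 bases before the start and that of tef3 139 bases before it.

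In wild type the level per length spanned a wide range among the genes. The gene tef3 (SPCC417.08, chromosome III 1685666 to 1688809) was highest at 5394 FPKM, the 80th highest of 4761 genes, followed by tef5 (SPCC1450.04, chromosome III 1732774 to 1733665, 2 coding exons) at 4759 FPKM. The eEF1A copies tef101 (SPCC794.09c, chromosome III 268097 to 269479), tef103 (SPBC839.15c, chromosome II 626106 to 627488) and tef102 (SPAC23A1.10, chromosome I 4095202 to 4096584) stood at 2306, 1455 and 915 FPKM. Below them lay sup35 (SPCC584.04, chromosome III 1535453 to 1537524, 2 coding exons) at 528 FPKM, eft202 (SPCP31B10.07, chromosome III 537326 to 539854) at 374 FPKM and eft201 (SPAC513.01c, chromosome I 2907701 to 2910229) at 284 FPKM, the 718th highest gene. Neighbours in this order were not apart: the bounds of each overlapped those of the next. The level of tef5, the shortest member at 645 bases, is the least sure, because its FPKM was 1.31 (sfp1 KO) to 1.40 (fhl1 KO) times the midpoint of its bounds, while for the other members this ratio lay between 1.00 and 1.05.

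Summed over copies, eEF1A stood at 4677 FPKM in wild type and eEF2 at 658 FPKM, 14.1% of the eEF1A sum. eEF3 stood at 115% of the eEF1A sum. A sum does not depend on how reads were divided among copies, but it does depend on whether reads that fit several copies were counted.

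**Figure D2:**
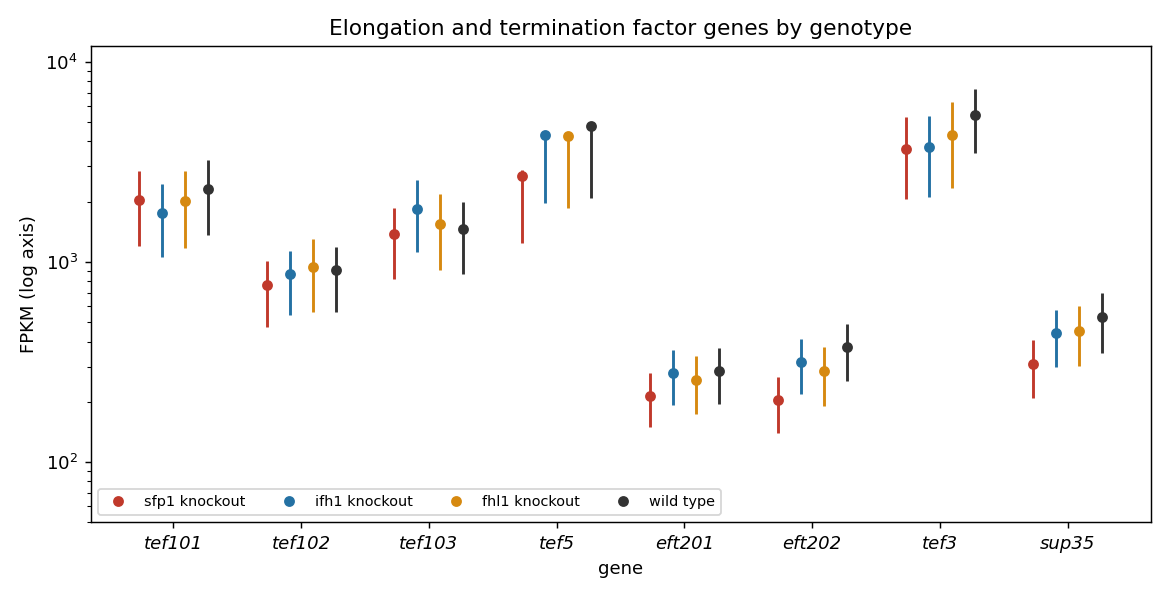
FPKM (log axis) of each gene in sfp1, ifh1 and fhl1 KO and wild type, as points, with the deposited lower and upper bounds as lines. The bounds of every knockout overlap those of wild type for every gene, and for every gene but tef101 the lowest point is that of sfp1 KO.

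In sfp1 KO all 8 genes had lower values than in wild type, at a median log2 ratio of −0.48, and 0 were at least 2-fold lower, against 2.5% of all genes, or 2-fold higher, against 3.11%. Below 0 were also 51.4% of all genes, whose median was −0.01. Without scaling, tef5, sup35, tef3 and the eEF2 copies lay between −0.88 and −0.40, and the 3 eEF1A copies between −0.26 and −0.09. With quantile normalization tef3 (−0.03) was above the eEF1A copy tef102 (−0.06). When columns were scaled by their sum without ribosomal protein genes, or with quantile normalization, 6 of the 8 stayed below 0, and tef101 and tef103 were then above it. With the sum scaling the median of all genes was 0.19, and all 8 members lay below that median. With quantile normalization the median of all genes was −0.002, and 6 of the 8 lay below it.

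The eEF2 copy eft202 had 203 FPKM in sfp1 KO, 317 in ifh1 KO and 284 in fhl1 KO, against 374 in wild type. It was lowest in sfp1 KO, at 54.3% of the wild-type level (log2 −0.88), and 167 of 4761 genes had a lower log2 ratio. Its bounds were 140.3 to 265 FPKM in sfp1 KO and 254 to 487 FPKM in wild type, which overlapped narrowly. The other copy, eft201, had 215 FPKM in sfp1 KO, 278 in ifh1 KO and 257 in fhl1 KO, against 284 in wild type. It too was lowest without sfp1, at a log2 ratio of −0.40. The eEF2 sum was 418 FPKM in sfp1 KO, 63.6% of the wild-type sum of 658 FPKM (log2 −0.65).

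The eEF1B subunit gene tef5, whose product exchanges the nucleotide on eEF1A, had 2696 FPKM in sfp1 KO, 4318 in ifh1 KO and 4252 in fhl1 KO, against 4759 in wild type. It was lowest in sfp1 KO, at a log2 ratio of −0.82, with bounds that overlapped those of the other 3 genotypes. In fhl1 KO the FPKM of tef5 lay above its own upper bound of 4235 FPKM, and in wild type just below the upper bound of 4795 FPKM. The overlap of its bounds therefore says little about its FPKM ratios. With quantile normalization the log2 ratios of tef5 were −0.34 in sfp1 KO, 0.75 in ifh1 KO and 0.35 in fhl1 KO. The gamma subunit of eEF1B (SPAC29A4.02c in RefSeq), looked up after the values were seen and not a member, had 2017 FPKM in sfp1 KO, 2649 in ifh1 KO and 2587 in fhl1 KO, against 2794 in wild type. Without scaling it shared the order of tef5, with sfp1 KO lowest (log2 −0.47). With quantile normalization its log2 ratios were −0.14 in sfp1 KO, 0.71 in ifh1 KO and 0.38 in fhl1 KO. Scaled by the sum without ribosomal protein genes, they were −0.26, 0.22 and 0.02. Under both scalings sfp1 KO stayed lowest for this gene, but wild type was no longer highest.

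The release factor gene sup35 had 309 FPKM in sfp1 KO, 441 in ifh1 KO and 450.4 in fhl1 KO, against 528 in wild type. The log2 ratio in sfp1 KO was −0.77, the ranges of the bounds being 209 to 407 FPKM there and 349.8 to 699 FPKM in wild type. The eEF3 gene tef3 had 3675 FPKM in sfp1 KO, 3743 in ifh1 KO and 4312 in fhl1 KO, against 5394 in wild type. For tef3 the unscaled values of the 3 knockouts were 68.1%, 69.4% and 79.9% of the wild-type level. With quantile normalization its log2 ratios were −0.03 in sfp1 KO, 0.26 in ifh1 KO and 0.13 in fhl1 KO. Scaled by the sum without ribosomal protein genes, they were −0.35, −0.23 and −0.19. The direction for tef3 in ifh1 KO and fhl1 KO thus rests on the scaling. In sfp1 KO its ratio stayed below 0 but came near 0 with quantile normalization.

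The eEF1A copy tef101 had 2038 FPKM in sfp1 KO, 1759.5 in ifh1 KO and 2023 in fhl1 KO, against 2306 in wild type. The copy tef102 had 767 FPKM in sfp1 KO, 869.7 in ifh1 KO and 940.3 in fhl1 KO, against 915 in wild type. The copy tef103 had 1371 FPKM in sfp1 KO, 1846 in ifh1 KO and 1547 in fhl1 KO, against 1455 in wild type. Each copy thus had another order of genotypes, and the eEF1A sum varied less than any of the 8 genes, at 4176 FPKM in sfp1 KO, 4475 in ifh1 KO and 4510.0 in fhl1 KO, against 4677 in wild type. These sums were 89.3%, 95.7% and 96.4% of wild type.

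In ifh1 KO against wild type, 7 of 8 members were below 0, with a median of −0.19, beside 52.1% of all genes and a median of all genes of −0.01. At least 2-fold lower were 0 members, against 2.84% of all genes, and 0 were at least 2-fold higher, against 1.6%. The lowest were tef3 (−0.53) and tef101 (−0.39), and the highest was tef103 (0.34), which with its 127% of the wild-type level was above more log2 ratios (4070 of 4761 genes) than any other member. With quantile normalization tef3 (0.26) and tef101 (0.25) were above 0, the lowest were eft202 (−0.07) and sup35 (−0.02), and tef103 stayed the highest (0.87). The member median turned to 0.11 when scaled by the sum without ribosomal protein genes, where all genes had a median of 0.28, and to 0.26 with quantile normalization. Relative to that median of all genes it was −0.17 with the first of these scalings and 0.25 with the second, so no direction can be given for the group in this knockout.

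In fhl1 KO against wild type, 6 of 8 members were below 0, with a median of −0.18, beside 47.0% of all genes and a median of all genes of 0.02. At least 2-fold lower were 0 members, against 0.903% of all genes, and 0 were at least 2-fold higher, against 2.58%. The lowest were eft202 (−0.40) and tef3 (−0.32), while tef102 (0.04) and tef103 (0.09) were above 0. The median was 0.13 with quantile normalization, so here too the direction of the group rests on the scaling. The 3 comparisons share the wild-type column, so a high or low wild-type value of a gene enters all of them.

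**Figure D3:**
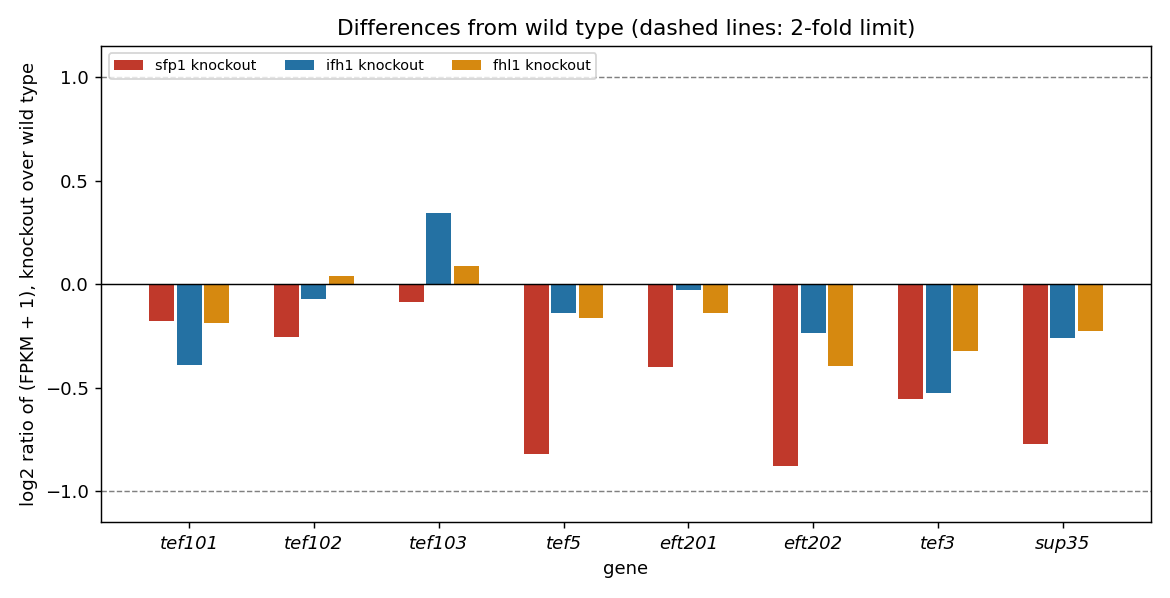
Log2 ratio of FPKM + 1, knockout over wild type, for each gene in sfp1, ifh1 and fhl1 KO, with dashed lines at the 2-fold limit. No bar reaches the limit, the bars of sfp1 KO reach −0.88 for eft202 and −0.82 for tef5, and the highest bar is tef103 in ifh1 KO at 0.34.

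Set against each other without the wild-type column, the knockouts differed as follows. The gene tef5 was lower in sfp1 KO than in ifh1 KO (log2 −0.68) and than in fhl1 KO (−0.66). For eft202 the values were −0.64 and −0.48, and for sup35 −0.51 and −0.54. For tef3 they were −0.03 and −0.23. For tef103 they were −0.43 and −0.17. With quantile normalization the log2 ratio of sfp1 KO to ifh1 KO was −1.09 for tef5, −0.81 for tef103, −0.64 for eft202 and −0.56 for sup35. The value of tef5 was past the 2-fold limit with this scaling only. It was −0.69 with size factors, −0.77 with the sum scaling and −0.64 with midpoints of the bounds. The share of all genes past the limit between these knockouts was not counted with quantile normalization. Without scaling, 0 members were 2-fold apart between sfp1 KO and ifh1 KO, while 2.08% of all genes were at least 2-fold lower and 2.46% higher in sfp1 KO. Between sfp1 KO and fhl1 KO it was again 0 members, beside 1.91% lower and 1.2% higher. Between ifh1 KO and fhl1 KO the log2 ratios lay between −0.20 (tef3) and 0.26 (tef103), and 0 members were 2-fold apart, beside 1.39% of all genes lower and 0.42% higher in ifh1 KO. With quantile normalization tef3 (0.13), tef101 (0.13), tef102 (0.11) and sup35 (0.07) were higher in ifh1 KO than in fhl1 KO, against −0.20, −0.20, −0.11 and −0.03 without it, so their direction between these knockouts rests on the scaling. The differences of tef103 (0.64) and tef5 (0.40) were then the larger ones.

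The share of each copy within its family was read next, since the copies encode the same factor. Of the eEF1A sum, tef101 held 48.8% in sfp1 KO, 39.3% in ifh1 KO and 44.9% in fhl1 KO, against 49.3% in wild type. The share of tef103 was 32.8% in sfp1 KO, 41.3% in ifh1 KO and 34.3% in fhl1 KO, against 31.1% in wild type. In ifh1 KO tef103 was thus level with tef101, and in the other 3 genotypes tef101 was the highest copy, while tef102 held 18.4% to 20.8% throughout. Of the eEF2 sum, eft202 held 48.6% in sfp1 KO, 53.3% in ifh1 KO and 52.4% in fhl1 KO, against 56.8% in wild type. Between 51.3% (tef101) and 77.5% (eft201 and eft202) of the windows of 100 bases in these copies recur elsewhere in the genome, and the part of read sharing in these shares was not tested.

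**Figure D4:**
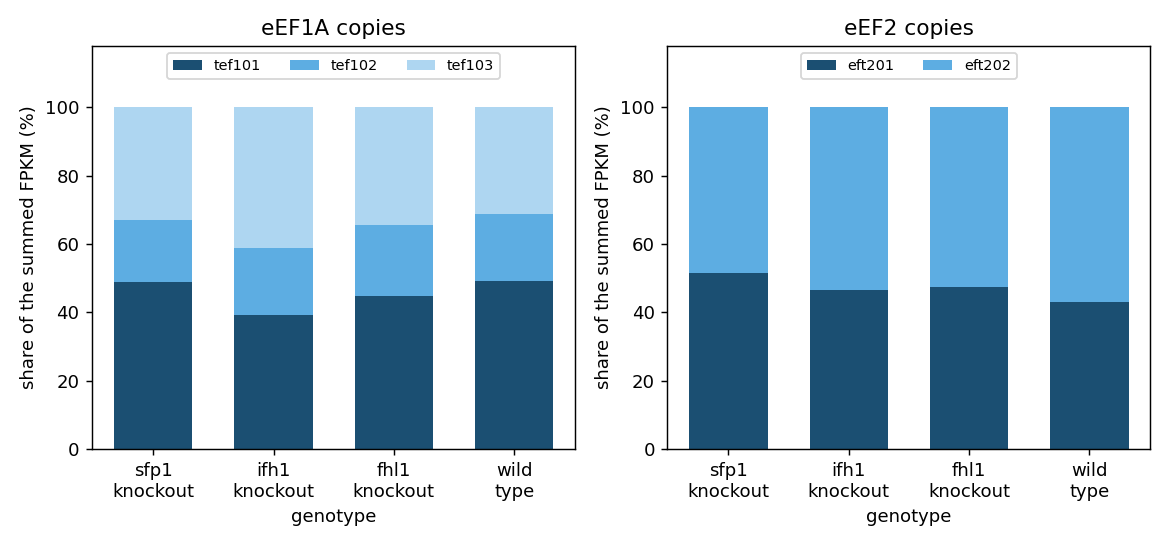
Share of each copy in the summed FPKM of eEF1A (left) and eEF2 (right) in sfp1, ifh1 and fhl1 KO and wild type. The share of tef103 is 41.3% in ifh1 KO and 31.1% in wild type, and eft201 is the higher eEF2 copy in sfp1 KO, at 51.4%.

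The 4 members with a HomolD box (tef101, tef102, tef103 and tef3) were set beside those without one, after the values were seen. Their median log2 ratio was −0.22 with the box and −0.80 without it in sfp1 KO, −0.23 and −0.19 in ifh1 KO, and −0.08 and −0.20 in fhl1 KO. In sfp1 KO, without scaling, tef3, which has the box, was lower than eft201, which has none, so the groups overlapped. The same held with the sum scaling (−0.35 for tef3 and −0.20 for eft201). With quantile normalization the groups did not overlap in sfp1 KO. The lowest with the box was then tef102 (−0.06) and the highest without it eft201 (−0.27). Whether the members differ by the box thus rests on the scaling and was not tested. Ribosomal protein genes had medians of −0.58 with and −0.63 without the box in sfp1 KO, −0.94 and −0.98 in ifh1 KO, and −0.58 and −0.57 in fhl1 KO. The other 44 measured genes with the box stood at −0.31, −0.45 and −0.23 in sfp1, ifh1 and fhl1 KO. In ifh1 KO, without scaling, the 4 members with the box had a median nearer to 0 than ribosomal protein genes with it. These 4 members ran from −0.53 (tef3) to 0.34 (tef103). At least 2-fold lower were 36 of 88 ribosomal protein genes with the box and 22 of 50 without it, beside 2.84% of all genes.

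Lists of related genes gave the frame for these values. Among 13 other elongation factors and genes acting on them, 11 were below 0 in sfp1 KO (median −0.15), 7 in ifh1 KO (−0.03) and 8 in fhl1 KO (−0.10). The gene dph7, needed for the diphthamide residue of eEF2 in budding yeast, had 29.7 FPKM in sfp1 KO, 49.0 in ifh1 KO and 41.7 in fhl1 KO, against 68.1 in wild type, and was at least 2-fold lower in sfp1 KO (log2 −1.17). In that pathway dph3 was higher in all 3 knockouts (142, 146.9 and 263 FPKM, against 67.0 in wild type), but it is a short gene of 240 bases, where FPKM is least sure. The diphthamide gene dph4 was low throughout, at 3.56, 4.42 and 2.47 FPKM against 1.24 in wild type.

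Of 13 partners in termination, recycling and rescue, 7 were below 0 in sfp1 KO (median −0.02), 3 in ifh1 KO (0.18) and 5 in fhl1 KO (0.12), and 0 were at least 2-fold lower in any. The lowest were trm112 (−0.86), whose product is the partner of methyltransferases that include the one for eRF1, and dom34 (−0.69), a relative of eRF1 that acts on stalled ribosomes, both in sfp1 KO. The highest were mtq2, the eRF1 methyltransferase gene, at 0.61 in sfp1 KO, 0.61 in ifh1 KO and 0.72 in fhl1 KO, and ski7 at 0.40, 0.57 and 0.54. The mtq2 values were low, between 7.68 and 13.3 FPKM.

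Factors for the same steps in the mitochondrion, 10 of 11 of them above the minimum, lay near 0, with medians of −0.03 in sfp1 KO, 0.06 in ifh1 KO and 0.07 in fhl1 KO. The peptidyl-tRNA hydrolase gene pth1 was the one at least 2-fold lower (log2 −1.01 in sfp1 KO, 13.2 against 27.6 FPKM). Initiation factor genes had medians of −0.36 in sfp1 KO, with 22 of 23 below 0, −0.08 in ifh1 KO and −0.13 in fhl1 KO. At least 2-fold lower in sfp1 KO were tif6 (−1.24), tif213 (−1.08), tif5 (−1.08) and tif211 (−1.02), and in ifh1 KO sce3 (−1.05). The 138 cytosolic ribosomal protein genes had medians of −0.60 in sfp1 KO, −0.96 in ifh1 KO and −0.58 in fhl1 KO. The elongation and termination factor median of −0.48 was thus near the ribosomal protein median in sfp1 KO, and in ifh1 KO it was −0.19 beside −0.96. With quantile normalization the ribosomal protein medians were −0.12 in sfp1 KO, −0.17 in ifh1 KO and −0.12 in fhl1 KO, beside −0.17, 0.26 and 0.13 for the elongation and termination factors. When scaled by the sum without ribosomal protein genes, 17 of the 23 initiation factor genes were below 0 in sfp1 KO (median −0.16), and the median of the other elongation factors turned to 0.05 in sfp1 KO. The median of all genes in sfp1 KO was then 0.19, above both list medians. Under that scaling tif6 (−1.04) stayed past the 2-fold limit in sfp1 KO. There dph7 (−0.97), tif213 (−0.88), tif5 (−0.87), tif211 (−0.82) and pth1 (−0.81) did not, nor did sce3 in ifh1 KO (−0.76). With quantile normalization tif6 (−1.08), dph7 (−1.26) and pth1 (−1.24) were past it in sfp1 KO. The genes tif213 (−0.87), tif5 (−0.88) and tif211 (−0.86) were not, nor was sce3 in ifh1 KO (−0.82). Short of it were also pth1 with size factors (−0.997) and with midpoints of the bounds (−0.86), and sce3 with midpoints (−0.97).

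**Figure D5:**
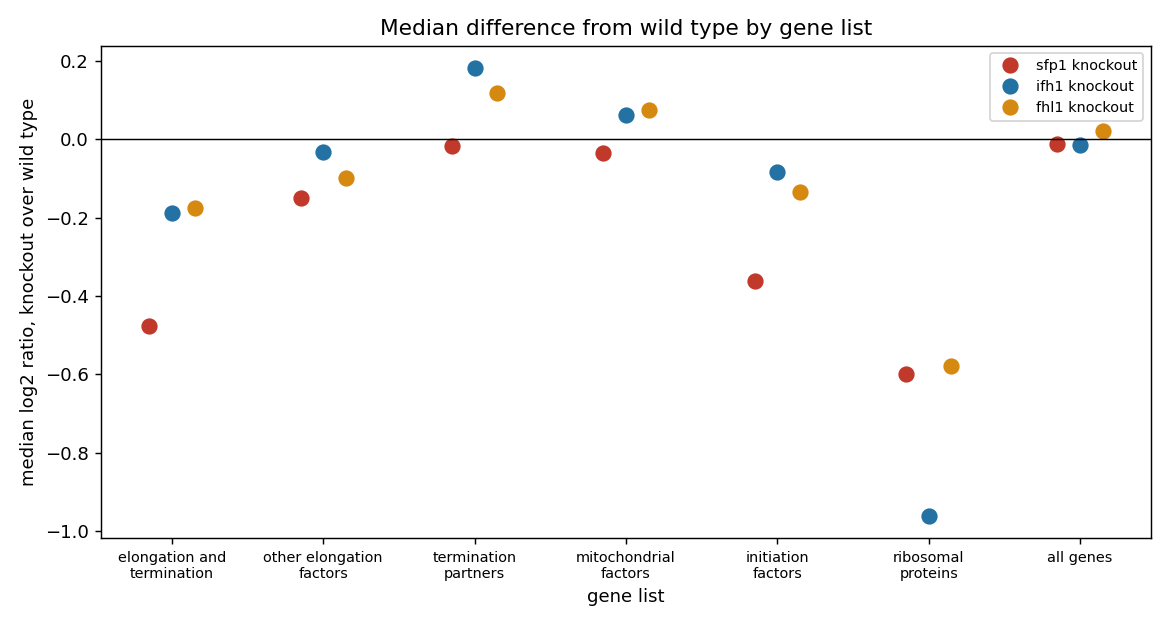
Median log2 ratio, knockout over wild type, of 6 gene lists and of all genes in sfp1, ifh1 and fhl1 KO. The elongation and termination factors lie at −0.48 in sfp1 KO and at −0.19 and −0.18 in ifh1 and fhl1 KO, and the ribosomal protein genes at −0.60, −0.96 and −0.58.

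Genes near the median of the eEF1A and eEF2 copies over the 3 knockouts (−0.26, −0.07 and −0.14) were sought by Euclidean distance. The search covered 2046 genes of at least 1200 bases and 20 FPKM. The nearest were lsb4 (distance 0.053), mde10 (0.057), asc1 (0.058), cdc6 (0.058) and mex67 (0.062). The copies themselves ran from −0.88 to −0.09 in sfp1 KO and from −0.39 to 0.34 in ifh1 KO. Nearness to their median is thus not likeness to each copy. The median lies near that of all genes, where many genes are close, and 3 log2 ratios that share the wild-type value carry little information on likeness.

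The surroundings of the members in RefSeq were read for reads that could come from other genes. Antisense noncoding genes overlap the coding sequence of all members but tef3, by 80 bases in tef5 up to 812 bases in tef102. Libraries were directional per the labels, but the sources used here do not give whether counting used the strand. On the same strand as a member, rbm8 overlaps tef102 by 17 bases outside its coding sequence, sec1 lies 54 bases from sup35 and tcb2 lies 87 bases from eft202. The nearest gene on the strand of tef103, 643 bases away, is efm4 (named see1 in the table), the counterpart of a budding yeast methyltransferase of eEF1A, at 17.0 FPKM in sfp1 KO, 27.3 in ifh1 KO and 27.2 in fhl1 KO, against 30.9 in wild type. The ribosomal protein gene rpl35A01 lies 283 bases from eft202, on the opposite strand.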

How the data were processed

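The tools named in the submitters' processing notes are TopHat2 2.0.9 and Cufflinks 2.1.1. The sources used here do not give their roles, a genome build, an annotation, or whether or how the 2 replicates named by the table were combined. The authors deposited FPKM with a lower and an upper bound per gene and genotype. Columns named crf1d were read as the ifh1 knockout, since crf1 is a synonym of ifh1 in RefSeq. Members and gene lists were chosen with earlier results of these data known. Levels entered as log2(FPKM + 1) with no added scaling, for the 4761 genes that averaged 1 FPKM or more; deleted genes were counted among them. Fragments were read from the bounds, of which 99.5% of 24515 (those under 500 fragments) were whole steps of 0.237 FPKM × kb to within 0.05 steps. Named were all members and, from other lists, genes at the 2-fold limit or the 2 highest and 2 lowest; ribosomal protein genes are given by counts and medians, with 1 named as a neighbour. Lists were matched on the table's names, and 3 names (cam1, dph1, pab1) were left out because they belong to other genes there. Table starts were made 1-based. Coding boundaries of all 8 members equal those of RefSeq ASM294v3, the source of all sequences. The ratio step was tested on simulated data. Python 3.11.15, numpy 2.4.6, pandas 2.3.3 and matplotlib 3.10.9 were used.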

Additional observations from a re-analysis of the deposited data

How the results depend on the processing

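No paired analysis was possible because each genotype had 1 sample. Against wild type, no member reached the 2-fold limit under any of the 8 settings that kept copies apart. Pseudocounts, expression minimums, size factors and midpoints of the bounds changed no sign of a member. Scaling by the sum without ribosomal protein genes changed 7 of 24 signs and quantile normalization 10. The sum scaling moved the median of all genes to 0.19, 0.28 and 0.15 in sfp1, ifh1 and fhl1 KO. Below that median were then 8, 7 and 6 members, as without scaling, against 6, 2 and 3 with quantile normalization. The member median was 0.11 in ifh1 KO with the sum scaling, and 0.26 in ifh1 KO and 0.13 in fhl1 KO with quantile normalization. In sfp1 KO it stayed below 0 under every alternative, between −0.65 (copies summed, chosen after seeing the data) and −0.17 (quantile normalization). Counts of all genes moved more. With log2(FPKM + 10), 71, 25 and 51 genes were at least 2-fold higher in sfp1, ifh1 and fhl1 KO, against 148, 76 and 123, and 69 and 24 were lower in sfp1 and fhl1 KO, against 119 and 43. With a minimum of 10 FPKM, 97, 46 and 77 were higher, and with midpoints 80 were higher in fhl1 KO. Scaling by the sum without ribosomal protein genes gave 156 higher and 55 lower genes in ifh1 KO and 57 lower in sfp1 KO, and quantile normalization 64 lower in ifh1 KO, against 135 lower in it without scaling. Of the genes at the limit, 78.9, 73.9 and 82.7% were then higher with the sum scaling, against 55.4, 36.0 and 74.1%, and 51.5% with quantile normalization in ifh1 KO. The cause was not tested. The bounds of the members, at least 30.5% of the midpoint to either side, limit what single values can show.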
